A study of Mus musculus with 6 samples.

Results

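The miR-34 family and its relative miR-449 were described in sorted mouse cells from skin and from healing wounds. The members were all names on the array whose stem is miR-34a, miR-34b, miR-34c, miR-449a, miR-449b or miR-449c, in either arm and whether or not they were detected. There were 8 such names among 690 miRNA names on the array: miR-34a-5p, both arms of miR-34b and of miR-34c, miR-449a-5p, miR-449b and miR-449c-5p.

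All cells came from transgenic mice in which green fluorescent protein (GFP) reports smooth muscle actin (SMA), a protein of contractile cells. They were sorted for the absence of CD45, a surface marker of blood cells, and of CD31, a surface marker of endothelium. The skin group was dermal cells with low GFP, labelled fibroblast-like, and the wound group was cells with high GFP taken 7 days after injury, labelled myofibroblast. Each group had 3 preparations on 1 array each, numbered 1, 2 and 5 for skin and 3, 4 and 6 for wound. Age, sex, strain and pooling are not stated in the sources used here. Whether different animals gave the preparations is not stated. The p-values therefore reflect only the spread among preparations, which may be technical. Tissue and GFP level changed together, so that their contributions cannot be told apart.

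The miR-34 genes are direct transcriptional targets of p53, the transcription factor that is activated by DNA damage and other stresses. Their products lower the mRNAs of cell cycle and survival genes such as Cdk6, Ccnd1, Myc and Bcl2, and they are linked to cell cycle arrest and senescence. miR-34a has a transcript of its own, whereas miR-34b and miR-34c are cut from 1 shared primary transcript. The miR-449 miRNAs share their seed, the stretch that pairs with targets, and are best known from multiciliated epithelium, where miR-34b and miR-34c also act.

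The sequences show why these miRNAs are treated as 1 family. RefSeq (GRCm38.p6) held a mature sequence for 6 of the 8 names, and none for miR-34c-5p and miR-449b. The 5p arms with an entry are given first, 5′ to 3′, with the seed (bases 2 to 8) in capitals.
mmu-miR-34a-5p: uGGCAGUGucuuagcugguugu
mmu-miR-34b-5p: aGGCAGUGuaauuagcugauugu
mmu-miR-449a-5p: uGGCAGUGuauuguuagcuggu
mmu-miR-449c-5p: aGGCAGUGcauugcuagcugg

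These 4 names were the only ones with the seed GGCAGUG among 1679 mature names in the table, and all 4 were on the array. Outside the seed they differ: miR-34a-5p and miR-34b-5p had 19 identical bases in a global alignment of 22 and 23 bases, and miR-34a-5p and miR-449c-5p had 15. The 3p arms on the array carry another seed, AUCACUA, which no other mature name in the table had.
mmu-miR-34b-3p: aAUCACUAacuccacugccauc
mmu-miR-34c-3p: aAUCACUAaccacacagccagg

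The hairpins of the shared transcript are shown because their 5p arms resemble each other closely, with the stretch equal to the family seed in capitals.
Mir34b hairpin: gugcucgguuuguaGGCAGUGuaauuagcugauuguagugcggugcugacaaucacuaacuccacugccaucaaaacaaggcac
Mir34c hairpin: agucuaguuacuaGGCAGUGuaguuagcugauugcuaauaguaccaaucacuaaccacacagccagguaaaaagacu

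Laid ungapped on the Mir34c hairpin, miR-34b-5p matched in 21 of its 23 bases, against 11 of 22 for miR-34a-5p. The lower count depends on allowing no gap, since with 1 gap miR-34a-5p had 19 bases identical to miR-34b-5p. How far the miR-34a-5p, miR-34b-5p and miR-34c-5p probes read each other's targets was not tested, and their values are uncertain to that extent. In the annotation Mir34c and Mir34b are neighbours on chromosome 9, within the bounds of Btg4 and Hoatz. Mir34a lies on chromosome 4 outside any other gene, and the 3 Mir449 genes lie side by side within Cdc20b on chromosome 13.

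The 75th percentile used for scaling was 1487, 1244 and 1772 intensity units on skin arrays 1, 2 and 5. It was 786, 1095 and 1136 units on wound arrays 3, 4 and 6. Every wound array thus had a lower reference than every skin array, so this scaling raises wound values relative to skin values. The median local background was 49.0 to 55.5, and 187 to 233 names a sample were well above background. Markers of blood, striated muscle and neurons were sparse, while some of epithelium and endothelium were detected. Of 7 blood names 1, miR-451a, was well above background, on 2 skin arrays and 0 wound arrays. Of 8 striated muscle and 5 neuron names 0 were well above background on any array. Of 12 epithelial names 2 were tested, miR-205-5p and miR-203-3p. Each was detected on 0 wound arrays and was lower there (miR-203-3p at least 2.32-fold and miR-205-5p at least 1.60-fold higher in skin). Both entered the test through the skin arrays alone. Their list's summed scaled signal was 0.120 to 0.204 in skin and 0.00513 to 0.00920 in wound. Another miRNA of keratinocytes, miR-31-5p, is outside that list and was looked up after its values were seen. It was detected on 0 skin arrays and 3 wound arrays, so it entered the test through the wound arrays alone. It was higher in wound by 1.27 (SE 0.16, adjusted p = 0.00145 in limma), at least 2.72-fold, opposite to the 2 names above. Its skin values were all raised to a common floor for dim signals (given below). Its size therefore depends on that floor, and its SE and p are too small. The part of epithelial cells in the family's values was not tested. The list for multiciliated epithelium has 7 names, of which 2 were detected on any array, both of them members (the 5p arms of miR-34b and miR-34c). The endothelial miR-126-3p was well above background on every array, with a difference of 0.50 that did not pass (adjusted p = 0.109 in limma) and turned to -0.22 with quantile normalization. Of 8 smooth muscle and mesenchymal names 7 were tested, of which miR-143-3p (1.24) and miR-145a-5p (0.65) were higher in wound, miR-199a-3p (-0.62) and miR-199b-5p (-0.75) lower, and 3 did not pass. Of these miR-145a-5p entered the test through the wound arrays alone, with a skin mean close to the floor for dim signals. Of all tested miRNAs 44.1% were called higher and 20.7% lower at the reported scaling. Over the 5 scalings 1 to 3 of the 7 were higher and 2 or 3 lower. These scalings called 23.4% to 44.1% of all tested miRNAs higher and 20.7% to 34.2% lower. In bulk samples a change in the number of cells carrying a miRNA and a change in its amount per cell cannot be told apart.

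Detection separated the family members. Detection means that, for at least 1 probe of a name, the scanner flagged more than 50% of the spots as well above background. miR-34a-5p was detected on all 6 arrays, miR-34b-5p and miR-34c-5p on all 3 wound arrays and on 0 skin arrays, and the other 5 names on 0 arrays. Thus 1 of 8 names was detected on each skin array and 3 of 8 on each wound array.

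mmu-miR-34b-5p separated the groups before any scaling. Its mean spot signal was 15.2, 5.12 and 10.1 intensity units on skin arrays 1, 2 and 5, and 84.3, 107 and 86.6 units on wound arrays 3, 4 and 6. Every wound value exceeded every skin value, and the lowest wound signal was above the lowest signal well above background on any array (27.5 to 35.9 units). Of its spots 60 of 60 were flagged well above background on the wound arrays and 0 of 60 on the skin arrays. How many of all tested miRNAs separated in this way before scaling was not counted. At the reported scaling all 3 wound values lay above all 3 skin values in 48.6% of them.

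mmu-miR-34c-5p, from the same transcript, had the same pattern at lower signal. Its mean spot signal was 7.05, 0.749 and 4.71 units on skin arrays 1, 2 and 5, and 51.8, 71.3 and 67.1 units on wound arrays 3, 4 and 6. The groups did not overlap, and wound array 3 was the lowest of the 3 wound arrays. The share of all tested miRNAs without such overlap before scaling was, again, not counted. Flags were set on 10, 18 and 16 of 20 spots on wound arrays 3, 4 and 6 and on 0 of 60 skin spots.

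mmu-miR-34a-5p was bright on every array and did not separate the groups before scaling. Its mean spot signal was 242, 208 and 307 units on skin arrays 1, 2 and 5 and 190, 323 and 220 units on wound arrays 3, 4 and 6. The means were 252 ± 49.8 units in skin and 245 ± 70.0 units in wound (SD, n = 3 each). The ranges overlapped over most of their length, and all 120 spots (60 a group) were flagged well above background.

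The remaining names stayed near 0 units in either group. miR-34b-3p and miR-34c-3p, the opposite arms of the 2 wound-detected miRNAs, ranged from -4.72 to 7.53 and from -7.99 to -0.654 units over the 6 arrays. Neither had a flagged spot, so the differences of miR-34b and miR-34c were measured in the 5p arms alone. miR-449a-5p lay between -0.724 and 1.87 units in skin and between 3.44 and 4.63 units in wound. Those groups did not overlap, but every value was below the lowest signal well above background, so the order is not a measured difference. miR-449b and miR-449c-5p lay between -1.13 and 2.84 and between -6.21 and -1.31 units, each with 1 of 60 skin spots flagged and 0 of 60 wound spots.

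**Figure D1:**
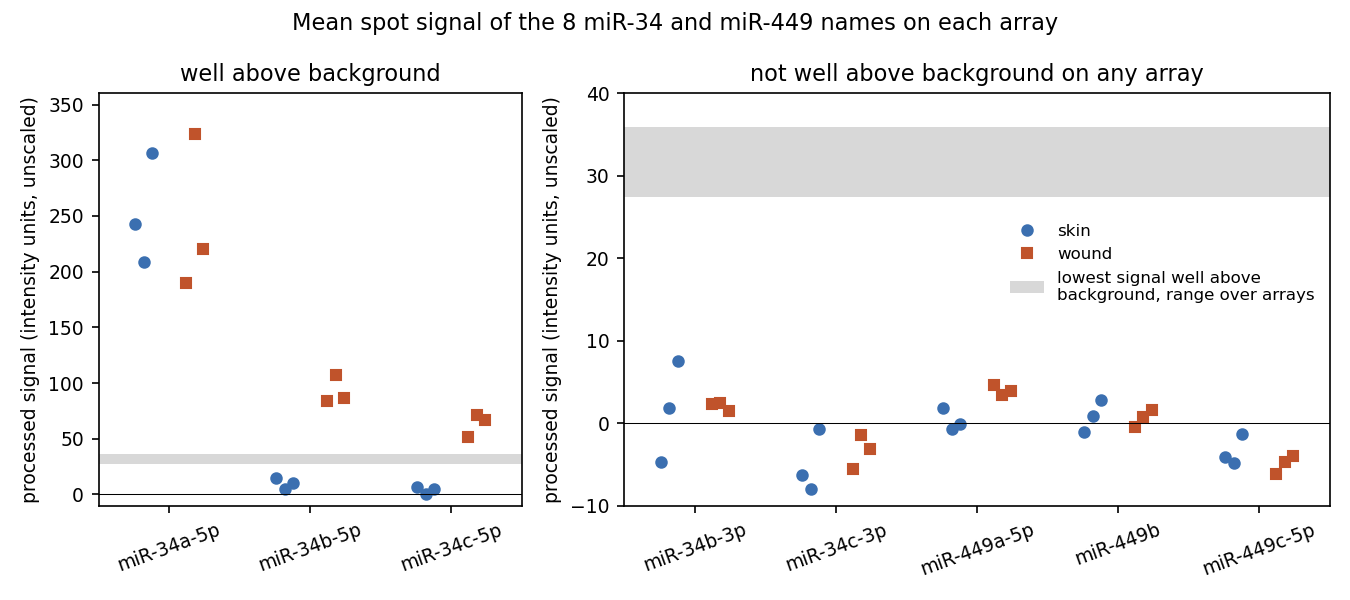
Mean processed signal in unscaled intensity units (y axis, scaled separately in the panels) of the 3 detected names (left) and the 5 others (right) on each of 3 skin arrays (circles) and 3 wound arrays (squares); the grey band is the range over arrays of the lowest signal well above background, 27.5 to 35.9 units. miR-34b-5p and miR-34c-5p lie below the band on all skin arrays and above it on all wound arrays, miR-34a-5p overlaps between the groups, and the other 5 names lie below the band throughout.

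The scaled levels were then compared, which asks whether family members differed between the groups once each array is set relative to its own reference. Levels are log2 of the signal over a reference of the same array, the 75th percentile of its probes detected on all arrays. Dim values were raised to a common floor of -5.30 on that scale. A name was tested when a probe of it was detected on each array of at least 1 group, so 3 of the 8 names entered the 222 tested, and miR-34b-5p and miR-34c-5p did so through the wound arrays alone. All 3 were called higher in wound in limma (Benjamini-Hochberg adjusted p under 0.05), where 44.1% of all tested miRNAs were called higher and 20.7% lower. Among the 33 tested miRNAs detected on no skin array, 84.8% were called higher, a share against which the calls of miR-34b-5p and miR-34c-5p are read.

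For mmu-miR-34b-5p the scaled level was at the floor on all 3 skin arrays and averaged -3.44 ± 0.22 (SD, n = 3) on the wound arrays. The difference was 1.86 (SE 0.12, adjusted p = 0.000106 in limma), which is 1.48 above the median difference of all tested miRNAs (0.38). Because no skin array was well above background, the fold is a bound: wound levels were at least 4.10-fold higher with this scaling. The bound fell to 2.55-fold with the 75th percentile of all probes, 3.09-fold with median scaling, 2.43-fold with quantile normalization and 2.74-fold without scaling. The bound sets the wound mean against the skin arrays' detection limits, meaning each array's smallest signal that still counted as well above background (or the dim signal, where that is higher).

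For mmu-miR-34c-5p the level was likewise at the floor in skin and averaged -3.93 ± 0.14 in wound. Its difference was 1.37 (SE 0.08, adjusted p = 7.39e-05 in limma), or 0.99 beyond the 0.38 of all tested miRNAs, and its wound level was at least 2.91-fold higher. With the other scalings, in the same order, that bound was 1.81-fold, 2.20-fold, 1.75-fold and 1.95-fold. Since values at the floor have no spread, the SE and p of both miRNAs are too small. An exact two-sided permutation test over the 6 arrays gave p = 0.1 for each, the smallest that 3 against 3 arrays allow.

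For mmu-miR-34a-5p the scaled level was -2.66, -2.62 and -2.53 on skin arrays 1, 2 and 5 and -2.05, -1.88 and -2.29 on wound arrays 3, 4 and 6. The wound arrays lay above the skin arrays without overlap, as in 48.6% of all tested miRNAs. The difference was 0.53 (SE 0.12, a fold of 1.45, adjusted p = 0.0114 in limma), only 0.15 above the median of all tested miRNAs. Among the 156 miRNAs detected on all arrays, of which 37.2% were called higher, it ranked 55 from the largest rise to the largest fall, and 84 by size in either direction. The exact permutation p was again 0.1.

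**Figure D2:**
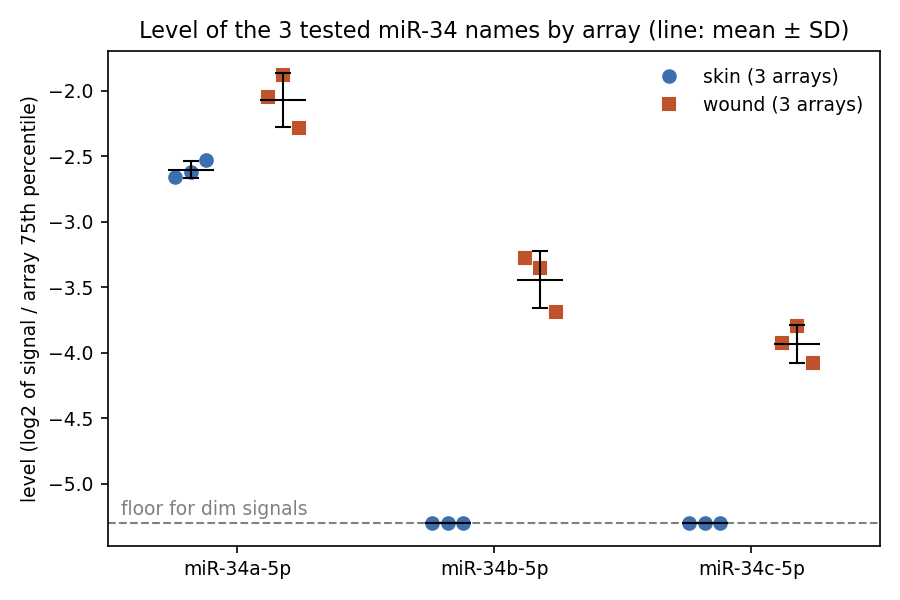
Scaled log2 level (y axis) of the 3 tested names (x axis) on each skin array (circles) and wound array (squares), with mean ± SD as bars and the floor at -5.30 as a dashed line. All skin values of miR-34b-5p and miR-34c-5p sit on the floor, while the skin and wound values of miR-34a-5p are 0.53 apart on average.

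The call of miR-34a-5p changed with the scaling, and those of the other tested members did not. With the 75th percentile of all probes its difference was -0.15, with median scaling 0.12, with quantile normalization -0.0084 and with no scaling -0.051. None of these passed (limma adjusted p from 0.118 to 0.972), so it was called under 1 of 5 scalings. Of all tested miRNAs these 4 scalings called 23.4%, 29.7%, 31.5% and 24.3% higher and 34.2%, 29.7%, 30.2% and 24.3% lower, in the same order. Measured from the all-miRNA median, which lay between -0.19 and 0.38, it stayed between -0.0084 and 0.15. Its call was also lost without skin preparation 1 (0.52, adjusted p = 0.0655). The other members were called higher under all 5 scalings, by 1.42 to 1.61 relative to that median for miR-34b-5p and by 0.95 to 1.11 for miR-34c-5p. Their size depended on the floor, as the next values show. With a floor 4 times as high the wound values of both lay at or near it and the difference was 0.0074 and 0, and with a floor 4 times as low it was 3.63 and 3.37.

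Normexp background correction, with which 7.21% of all tested miRNAs were called higher, left 0 of the 3 called (adjusted p = 0.173 for each in limma), at 1.06, 1.21 and 1.105 for miR-34a-5p, miR-34b-5p and miR-34c-5p. The median of all tested miRNAs was 1.03 there. The 6 arrays were spread over 2 rows of the slide. Within row 1 (2 skin arrays, 1 wound array) and row 2 (1 skin array, 2 wound arrays) the difference was 0.59 and 0.45 for miR-34a-5p, 2.02 and 1.78 for miR-34b-5p and 1.38 and 1.36 for miR-34c-5p. With the row as a block it was 0.52, 1.90 and 1.37, and all 3 calls held, with 43.7% of all tested miRNAs called higher.

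**Figure D3:**
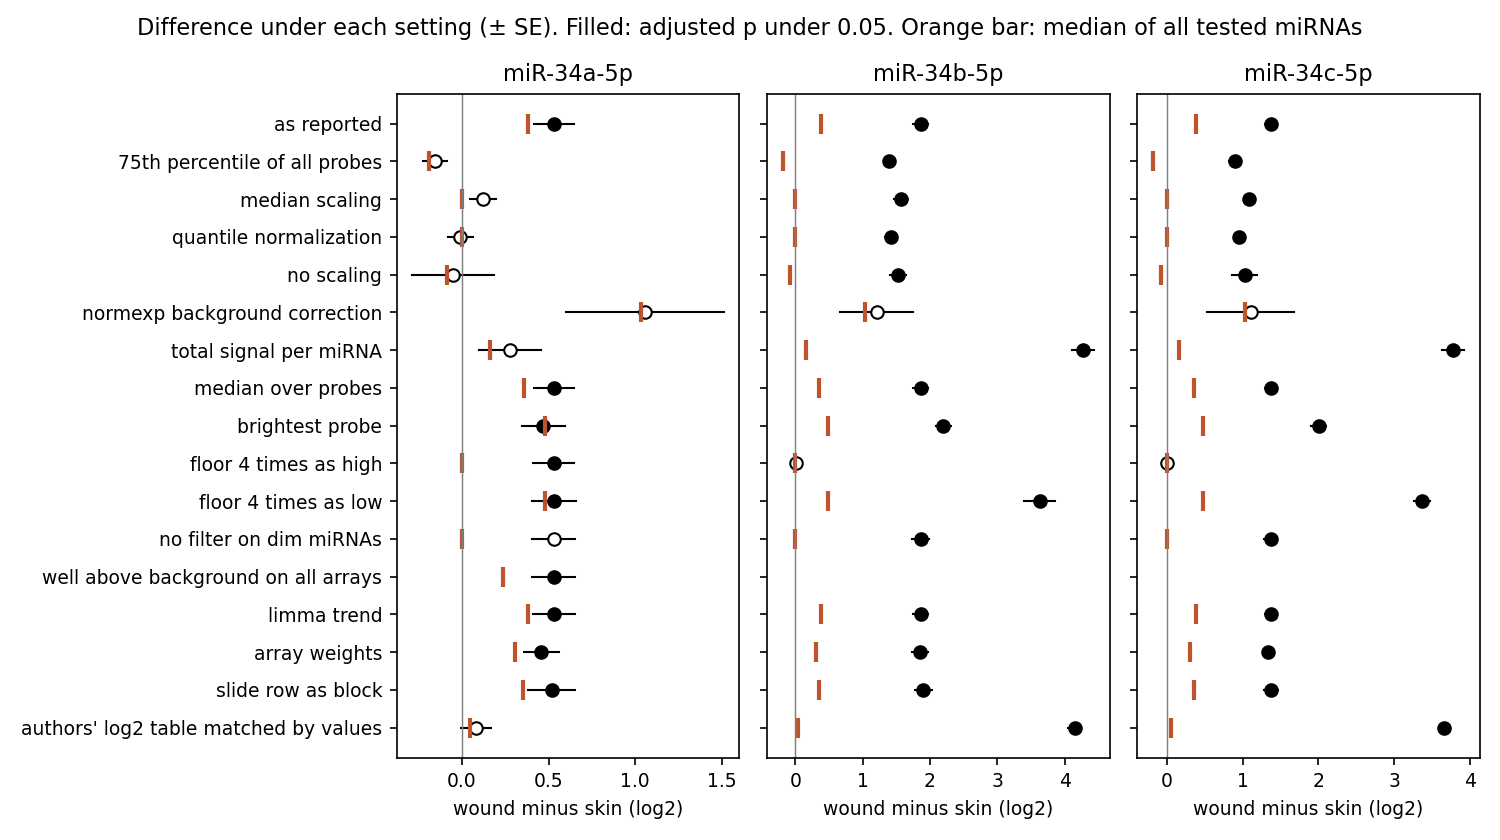
Wound minus skin difference on the log2 scale (x axis, ± SE) of the 3 tested names under each processing setting (y axis), filled where the adjusted p in limma is under 0.05, with the median of all tested miRNAs as an orange bar. The miR-34a-5p values follow the orange bar across the 5 scalings, whereas miR-34b-5p and miR-34c-5p lie 0.95 to 1.61 above it there. Their distance is smaller with normexp and the floor 4 times as high. It is larger with the floor 4 times as low, the brightest probe, no filter on dim miRNAs, the total signal and the authors' table.

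A ratio of 2 members within 1 array is free of the scaling, though only its change between groups can be read, since probes differ in brightness. The ratio of miR-34b-5p to miR-34a-5p signal was 0.064, 0.025 and 0.033 on skin arrays 1, 2 and 5 and 0.426, 0.360 and 0.378 on wound arrays 3, 4 and 6. The wound ratios were thus close to each other and all above the skin ratios. With the skin numerator raised to the lowest signal well above background the skin ratios were 0.152, 0.157 and 0.106, and the ratio was at least 2.84-fold higher in wound.

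The ratio of miR-34c-5p to miR-34a-5p was 0.275 ± 0.012 in wound (SD, n = 3), and at least 2.02-fold higher than in skin. Again all wound ratios exceeded all skin ratios. Both numerators were detected on the wound arrays alone, and miR-34a-5p did not separate the groups before scaling. The order of the ratios therefore restates that detection and is no separate test of it. The 2 miRNAs of the shared transcript kept a ratio of 0.640, 0.737 and 0.764 (miR-34c-5p over miR-34b-5p) on wound arrays 3, 4 and 6. On the skin arrays neither was well above background, and that ratio has no measured value.

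**Figure D4:**
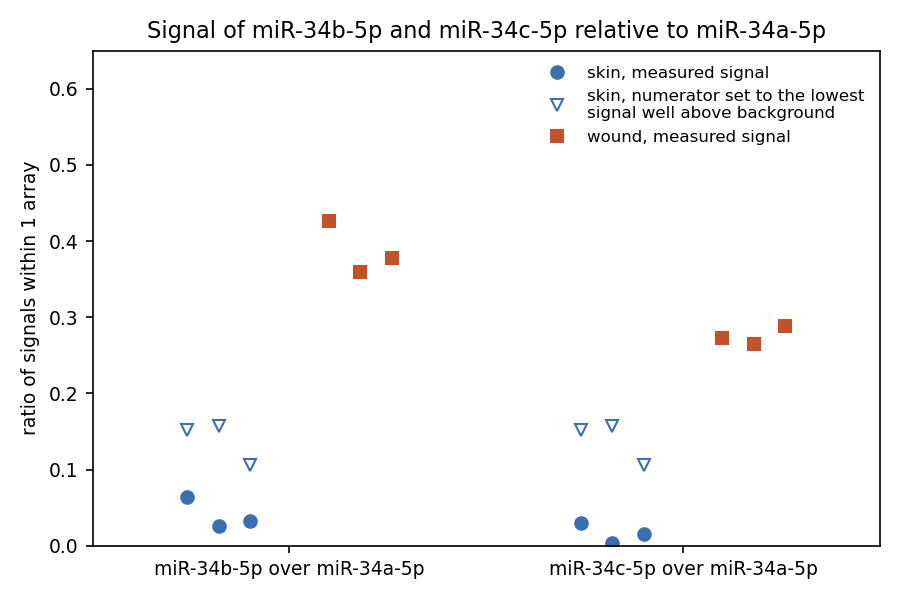
Ratio of miR-34b-5p and of miR-34c-5p signal to miR-34a-5p signal within each array (y axis), for skin arrays (circles; triangles with the numerator raised to the lowest signal well above background) and wound arrays (squares). The wound ratios of 0.360 to 0.426 and 0.265 to 0.289 lie above all skin values, raised or not.

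Each tested name was read by 2 probes of 10 spots, which share their target and are no replicates of a condition. For miR-34a-5p both probes were well above background on all arrays, with scaled differences of 0.72 for probe A_54_P2498 and 0.47 for A_54_P2499. Both probes of miR-34b-5p had all 30 wound spots flagged and 0 of 30 skin spots, with differences of 1.41 for A_54_P2445 and 2.20 for A_54_P2446. With this scaling the direction was thus the same in each probe of these names. Before scaling both probes of miR-34a-5p overlapped between the groups. A_54_P2498 read 105.7, 90.4 and 139 units on skin arrays 1, 2 and 5 and 96.8, 152.2 and 121 on wound arrays 3, 4 and 6. A_54_P2499 read 365.5, 314.5 and 473.9 units on these skin arrays and 283.1, 443.2 and 344.3 on these wound arrays. Its 2 probes are thus no support for a direction of miR-34a-5p apart from the scaling.

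The probes of miR-34c-5p disagreed in size. A_54_P1248 read 82.5, 122 and 102 units on wound arrays 3, 4 and 6 and 11.6, 1.15 and 7.98 units on skin arrays 1, 2 and 5, a scaled difference of 2.00. A_54_P1247 read 21.0, 36.0 and 32.3 units on the wound arrays, with 0, 8 and 6 of 10 spots flagged, and 2.48, 0.344 and 1.45 units on the skin arrays, a difference of 0.20 just above the floor. The value of miR-34c-5p therefore rests mainly on 1 probe, and taking the brightest probe of each name gave 0.47, 2.20 and 2.00 for miR-34a-5p, miR-34b-5p and miR-34c-5p.

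**Figure D5:**
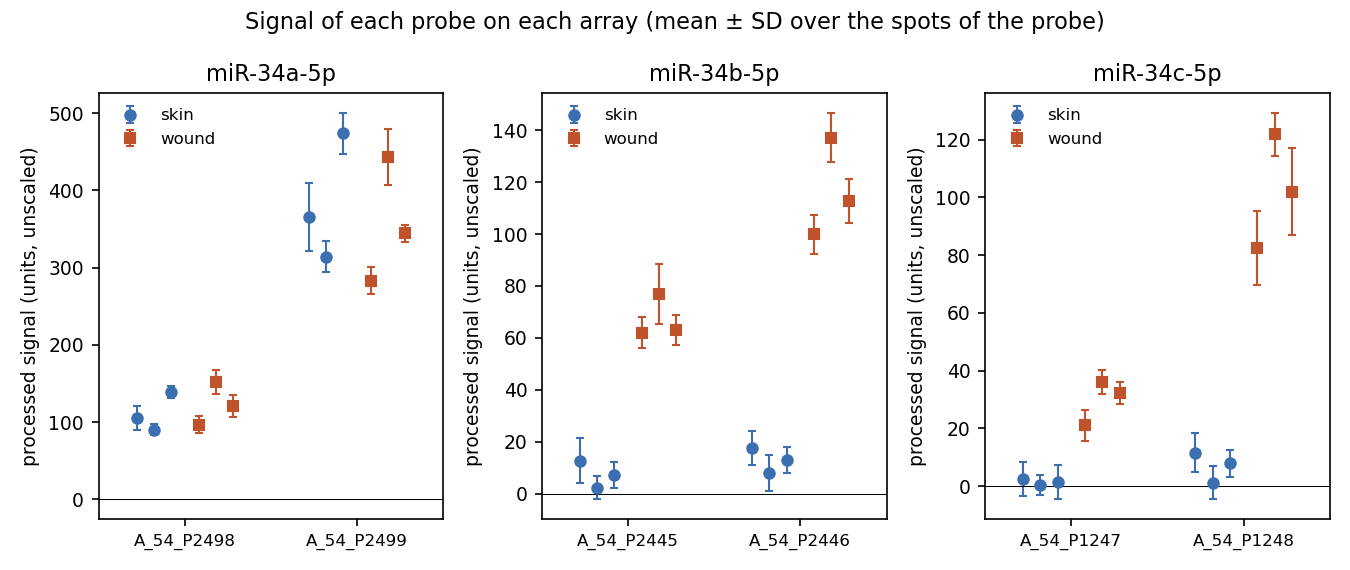
Processed signal in unscaled intensity units (y axis, mean ± SD over the spots of a probe) for the 2 probes of each tested name (x axis) on each skin array (circles) and wound array (squares). Each probe of miR-34b-5p and miR-34c-5p has all wound arrays above all skin arrays, and A_54_P1247 is the dimmest, at 21.0 to 36.0 units in wound.

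The deposited log2 table of the authors gave the same division of the family. Its columns equalled, up to a constant each, the log2 of the scanner's total signals. The array matched in this way had another number than the column for all 6 columns, so values are given by matched array. In the authors' deposited table miR-34a-5p was -0.73, -0.79 and -0.75 on skin arrays 1, 2 and 5 and -0.68, -0.57 and -0.77 on wound arrays 3, 4 and 6. The groups overlapped there. In the authors' deposited table miR-34b-5p was -1.91, -2.04 and -2.18 and miR-34c-5p -2.55, -2.48 and -2.57 on wound arrays 3, 4 and 6, and both were at the lowest value of the column for every skin array. The other 5 names were at that lowest value in all 6 columns.

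Other miRNAs linked to p53 were read from 3 lists by stem, beside the median difference of 0.38 over all tested miRNAs. Of 17 names that p53 is known to raise or help to mature, 7 were tested, of which 4 were higher, 1 lower and 2 did not pass, with a median difference of 0.23. Of all tested miRNAs 44.1% were called higher and 20.7% lower. miR-143-3p, whose processing p53 promotes, rose by 1.24 (SE 0.06, adjusted p = 2.68e-05 in limma), and its cluster neighbour miR-145a-5p, which targets Myc, by 0.65. miR-16-5p, which targets cyclin mRNAs, rose by 0.38, miR-22-5p by 0.22, and miR-107-3p, which targets Cdk6, fell by 0.53. miR-22-3p, the other arm of miR-22, differed by 0.22 and did not pass (adjusted p = 0.069). Over the 5 scalings 23.4% to 44.1% of all tested miRNAs were called higher and 20.7% to 34.2% lower. Of the 7 names 1 to 4 were higher there and 1 or 2 lower. Of these 6 only miR-143-3p and miR-107-3p were called under every scaling. miR-16-5p and both arms of miR-22 turned sign, and miR-145a-5p was called under 2.

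The opposite list, the miR-17-92 cluster that p53 represses and that promotes proliferation, had 4 of 5 tested members higher and 0 lower among 10 names, beside the 44.1% higher and 20.7% lower of all tested miRNAs. miR-18a-5p rose by 1.62 and miR-19a-3p by 1.71, and miR-19b-3p by 0.78. miR-20a-5p rose by 0.47 (called under 1 of the 5 scalings, and -0.21 under another), and miR-92a-3p differed by 0.11 and did not pass (adjusted p = 0.683). The list's median of 0.78 lay 0.40 above that of all tested miRNAs, and 1 to 4 members were higher and 0 or 1 lower over the scalings, which called 23.4% to 44.1% of all tested miRNAs higher and 20.7% to 34.2% lower. Only miR-18a-5p was called under all 5. It was detected on 1 skin array and 3 wound arrays, and entered the test through the wound arrays alone. At the reported scaling all its skin values lay at the floor. The size of its difference depends on that floor, and the p behind its call is too small.

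Among 5 tested of 6 names known to act on the p53 mRNA itself, 1 was higher and 2 lower, with a median of -0.08, beside the same 44.1% and 20.7%. miR-125b-5p fell by 1.40 (SE 0.10, adjusted p = 0.000142 in limma) and miR-30d-5p by 0.69, while miR-125a-5p, which shares the seed of miR-125b-5p, rose by 1.37. These 3 kept their calls under all 5 scalings. miR-25-3p (-0.08) and miR-125a-3p (0.42) did not pass at the reported scaling. miR-25-3p was called lower under 3 of the 5 scalings, with differences down to -0.77, and miR-125a-3p was called under 0. Over the scalings 1 tested name was higher and 2 or 3 lower, beside 23.4% to 44.1% and 20.7% to 34.2% of all tested miRNAs.

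Profiles most like those of the family were ranked by the root mean square difference of log2 values over the 6 arrays, each centred on its own mean. This is a description, dominated by the step between groups and, for miR-34b-5p and miR-34c-5p, by the floor. Closest to miR-34c-5p were miR-155-5p (0.060), miR-341-3p (0.083), miR-28a-5p (0.087) and miR-450a-5p (0.091). Of these miR-341-3p and miR-450a-5p were likewise detected on 0 skin arrays. Closest to miR-34b-5p were miR-455-3p (0.146), miR-541-5p (0.152), miR-409-5p (0.160) and miR-132-3p (0.174). For miR-34a-5p they were miR-299a-3p (0.097), miR-210-3p (0.098), miR-193b-3p (0.115) and miR-374c-5p (0.118), whose differences were 0.38 to 0.59.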

How the data were processed

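MicroRNA was measured on 6 Agilent 1-colour arrays (Cy3), 3 a group. Per the file headers all arrays lay on 1 slide, were scanned on 1 day and were quantified by Feature Extraction 10.7.3.1 of Agilent. The scanner files deposited by the authors hold linear intensity without normalization across arrays. A log2 table was deposited too, and how it was made is not stated in the labels or headers.

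Processed signals were averaged over the spots of a probe without outlier flags, set relative to each array's 75th percentile of probes detected on all 6 arrays, averaged over probes, raised to a common floor of 0.0253 and taken to log2. Control spots were dropped, and saturation flags numbered 0. Groups were compared with limma 3.58.1 in R 4.3.3 (two-sided, Benjamini-Hochberg over all tested miRNAs). The limma step alone was checked on simulated data, in which miRNAs without spread at the floor were given a spread. That check therefore does not cover the floor, the filter or the scaling. Alternatives covered scaling, background correction, signal, probe summary, floor, filter, model, slide row, each array left out and the authors' table. Figures used matplotlib 3.10.9 and sequence alignments Biopython 1.88.

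Named are all miR-34 and miR-449 names, tested names of 3 p53 lists (at most 6 each, smallest p) and cell type markers, and the 4 closest profiles to each tested family name. Members and lists were chosen with earlier results of these data known.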

Additional observations from a re-analysis of the deposited data

How the results depend on the processing

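The alternatives ended or turned the call of miR-34a-5p in 10 of 23 cases. It turned to -0.15 with the 75th percentile of all probes, -0.0084 with quantile normalization, -0.051 without scaling and -0.071 with the authors' table by column number. Taken by number, the columns mix the groups, so that setting does not compare wound with skin. Columns 1, 2 and 5 equal wound arrays 3 and 4 and skin array 2. Columns 3, 4 and 6 equal wound array 6 and skin arrays 1 and 5. miR-34a-5p no longer passed at 0.12 (median scaling), 1.06 (normexp), 0.28 (total signal per miRNA), 0.53 (no filter on dim miRNAs) and 0.081 (authors' table matched by values, an alternative chosen after seeing the data). Leaving out 1 array gave 0.43 to 0.65, and the adjusted p was 0.0062 to 0.972 over all alternatives. miR-34b-5p kept direction and call in 19 of 22 cases and was 1.21 with normexp, 0.0074 with the floor 4 times as high and -1.47 by column number; single arrays left out gave 1.80 to 1.995 (adjusted p 4.91e-07 to 0.952 over alternatives). miR-34c-5p kept them in 19 of 22 and was 1.105, 0 and -1.24 in these settings, with 1.29 to 1.45 without single arrays (adjusted p 3.20e-07 to 1). Neither could be tested with the filter that asks for detection on every array. The number of miRNAs called, 144, was 23 with normexp, 78 with the higher floor, 0 by column number (limma, 1 at an unadjusted p under 0.05) and 127 to 136 without single arrays; which miRNAs these share was not counted. The share of higher calls, 68.1%, was 40.6% with the 75th percentile of all probes, 50% with median or no scaling and 51.1% with quantile normalization, and 56.4% with the higher floor. Counting a name as detected from any flagged spot gave 2 names in place of 1 on skin arrays 1 and 5. The groups share no replicate number: No paired analysis was possible because the labels number the preparations 1 to 6 across groups. The number of arrays and the floor limit what can be said of signals below about 35.9 units.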
